A study of Mus musculus with 6 samples.

Results

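Type 1 conventional dendritic cells (cDC1) were examined among CD45+ cells taken from subcutaneous KPC pancreatic ductal adenocarcinomas in C57BL/6 mice. Of 60351 barcodes with enough genes, low mitochondrial content and a clear hashtag, 50 met the rule for cDC1: 22 of 19227 from PBS mice, 17 of 17092 from mono-IL10 mice and 11 of 24032 from IL10/2-Trikine mice. A member had at least 1 UMI (a counted RNA molecule) of Xcr1 and at least 1 of Clec9a, no more than 3 UMIs of the C1q genes C1qa, C1qb and C1qc, no more than 3 of the keratins Krt8 and Krt18, and none of Cd3e or Ncr1. It was also absent from the T and NK cell annotation. The barcode itself held at least 1000 genes, at most 10% mitochondrial UMIs and 1 hashtag with at least 2/3 of its antibody UMIs. The cells were thus chosen by their measured UMIs of Xcr1, Clec9a, C1q, keratin, Cd3e and Ncr1 genes, and the levels of those genes are not findings.

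Every mouse carried the same tumor line and received 2 intraperitoneal injections from day 8 after inoculation, with harvest on day 14. The injections were PBS, mono-IL10 at 26 µg per mouse, or IL10/2-Trikine at 30.6 µg per mouse. Mono-IL10 is a monomeric form of interleukin-10 that signals through the IL-10 receptor. IL10/2-Trikine joins it to a binder of the IL-2 receptor beta chain, so that a further receptor chain is drawn into the complex. The 5 mice of each treatment were marked with hashtag antibodies and pooled into 1 library, so treatment and library cannot be told apart. No age is given for the sequenced mice in the sources used here, and the CD45+ bead isolation still left many keratin-positive tumor cells.

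cDC1 are rare dendritic cells that take up dead cell material and present it to CD8+ T cells by cross-presentation. They develop under the transcription factors IRF8 and BATF3, sense dead cells with the receptor CLEC9A and meet CD8+ T cells and NK cells through the chemokine receptor XCR1. On maturation a dendritic cell gains CCR7, the receptor that guides it to lymph nodes, and in tumors cDC1 are a known source of interleukin-12.

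The 3 libraries differed in depth. The median member held 10247.5 UMIs in PBS, 12157 with mono-IL10 and 3202 with IL10/2-Trikine, and the members' UMIs summed to 240688, 215522 and 44481. A gene with 0 UMIs could thus lie as high as 12.5, 13.9 or 67.4 CPM (UMI counts scaled to 1000000 per group of cells) in the respective library, counting error only. The libraries shared 408 to 700 barcode sequences with each other pair by pair, and no member was among them. CPM values are not scaled by gene length, so levels of different genes are not ranked.

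The members carried the cDC1 program beyond the genes that chose them. Each of the 16 markers set for cDC1 had UMIs in these cells, but they include Xcr1 and Clec9a, whose UMIs the rule required. Having a UMI does not by itself set the cells apart, since all 8 macrophage markers had UMIs too. Batf3, a transcription factor required for the lineage, had 47 UMIs in 29 of the 50 cells and stood at 93.9 CPM, compared to 47.3 in type 2 dendritic cells, 267 in mature dendritic cells and 11.8 in macrophages. Irf8, the factor that sets cDC1 identity, was seen in 43 cells at 531 CPM, compared to 107 in type 2 cells, 546 in mature cells and 159 in macrophages. Batf3 and Irf8 therefore separated the members from type 2 cells and macrophages, and not from mature dendritic cells.

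Other identity genes separated the members from all 3 of those populations. Cadm1, an adhesion molecule, was present in 42 cells at 369 CPM, compared to 0 in type 2 cells, 8.7 in mature cells and 26.6 in macrophages. Wdfy4, required for cross-presentation of cell-associated antigen, stood at 655 compared to 207, 20.7 and 55.4 CPM. Naaa, a lysosomal amidase, was found in 48 cells at 1214 compared to 167, 15.2 and 86.9 CPM. Itgae, the CD103 integrin chain, stood at 537 compared to 174, 5.4 and 20.8. Among innate receptors, Tlr3, the endosomal sensor of double-stranded RNA, stood at 122 CPM compared to 0, 1.1 and 7.8. These are descriptions of cells that were chosen by expression and carry no test.

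**Figure D1:**
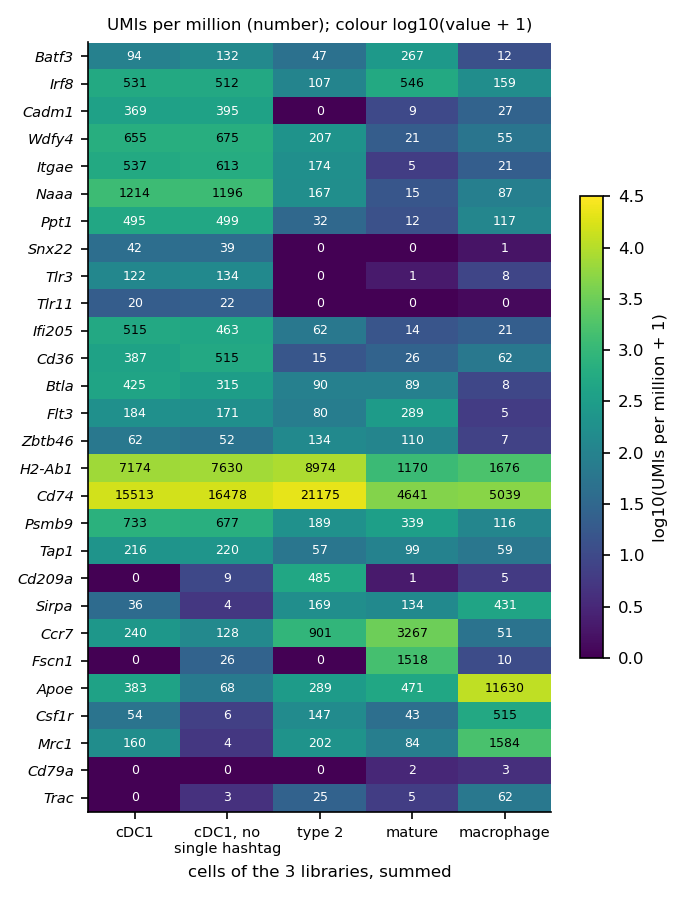
Heat map of gene levels, with the CPM printed in each cell and the color giving log10(CPM + 1). Rows are genes and columns are the 50 cDC1, the cDC1 without a single hashtag, type 2 and mature dendritic cells and macrophages. Cadm1, Naaa and Tlr3 were higher in both cDC1 columns than in the other columns, while Batf3 and Irf8 reached like or higher levels in mature dendritic cells.

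Markers of type 2 and plasmacytoid dendritic cells and of macrophages were present in most members, and those of other cells in fewer. No B cell, mast cell or erythroid marker had a UMI, T cell markers gave 2 UMIs and NK cell markers 4. Of the type 2 dendritic cell markers 6 of 7 had UMIs, in 39 of the 50 cells and with at least 3 UMIs in 21, at a summed 391 CPM in PBS, 213 with mono-IL10 and 719 with IL10/2-Trikine. The type 2 marker at 0 was Cd209a, which defines the type 2 cells here at 485 CPM. Of the plasmacytoid dendritic cell markers 4 of 5 had UMIs, in 33 cells, and Cox6a2 was at 0. Macrophage markers were present for 8 of 8 genes in 47 cells, with at least 3 UMIs in 32, at a summed 1828 CPM in PBS, 612 with mono-IL10 and 3844 with IL10/2-Trikine. The median cell stood at 479, 413 and 670 CPM and the highest IL10/2-Trikine cell at 15655, so a few cells carried much of the sums. Monocyte markers were seen for 3 of 5 genes in 20 cells, at a summed 112, 204 and 180 CPM, with Ly6c2 and Vcan at 0. Neutrophil markers summed to 179, 18.6 and 1664 CPM, from 8 cells in all. Both genes of the rule also had UMIs in 0.705% of PBS macrophages, 0.317% of mono-IL10 macrophages and 0.110% of IL10/2-Trikine macrophages.

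Just inside the limits of the rule, 9 members had 1 Xcr1 UMI, 8 had 1 Clec9a UMI, 13 had 1 to 3 C1q UMIs and 10 had a hashtag share under 0.7. Just outside, 12 otherwise matching cells had Xcr1 without Clec9a, 101 had Clec9a without Xcr1, and 12 had 4 to 10 C1q UMIs. The hashtag limit kept 20.2% of otherwise matching PBS cells, 40.5% of those from mono-IL10 and 45.8% of those from IL10/2-Trikine, compared to 55.7%, 71.0% and 52.1% of all barcodes that passed the gene and mitochondrial limits. The 125 cells set aside this way had a median hashtag share of 0.492. Their levels were compared over 192 listed genes with at least 20 UMIs in the members. Of these, 168 were within 2-fold of the members, with a Pearson r of 0.91 on the log2 scale across genes. These points share libraries, and genes are not independent replicates. Genes absent from the members could not enter, and both sets met the same rule apart from the hashtag. Likeness was thus in part set in advance, and no value for another cell type is given beside it.

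Of 15 MHC class II genes, 4 were higher in the members than in each of the type 2 cells, mature cells and macrophages, 1 was lower than in each and 10 lay between. Compared to type 2 cells alone, 6 were higher and 9 lower. Cd74, the invariant chain that escorts class II molecules, stood at 14708 CPM in PBS, 16643 with mono-IL10 and 14388 with IL10/2-Trikine, compared to 21175 in type 2 cells, 4641 in mature cells and 5039 in macrophages. H2-Aa, H2-Ab1 and H2-Eb1, the chains of the class II molecules, had UMIs in all 50 cells, whereas H2-Eb2 had 6 UMIs in 3 cells. Of 22 genes of class I presentation, 6 were higher in the members than in each of those 3 populations, 8 were lower than in each and 8 lay between, a description with no test. Psmb9, an immunoproteasome subunit, was at 733 CPM compared to 189 in type 2 cells, 339 in mature cells and 116 in macrophages. Tap1, a chain of the peptide transporter, was at 216 compared to 57.2, 98.9 and 58.8. H2-K1, a class I heavy chain, was among the lower ones, at 785 compared to 1145, 1724 and 1525 CPM.

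The cDC1 were compared between treatments per mouse, as a share of the non-epithelial cells sequenced and not as a number per tumor. In PBS the 5 mice held 1, 12, 2, 4 and 3 cDC1, or 0.0430%, 0.295%, 0.129%, 0.123% and 0.119%. In mono-IL10 they held 8, 4, 0, 1 and 4, or 0.219%, 0.178%, 0%, 0.0528% and 0.167%. In IL10/2-Trikine they held 6, 5, 0, 0 and 0, or 0.105%, 0.154% and 0% in the last 3 mice. Those zeros allow shares of up to 0.476%, 0.319% and 0.148%, and the mono-IL10 zero up to 0.187%, so a share at the PBS mean could not have been told from 0 in these 4 mice. The groups overlapped.

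The mean share was 0.142% ± 0.0925 (SD, n = 5) in PBS, 0.123% ± 0.0926 (SD, n = 5) with mono-IL10 and 0.0518% ± 0.0730 (SD, n = 5) with IL10/2-Trikine. IL10/2-Trikine minus PBS was -0.0899 percentage points (exact two-sided permutation test over mice, p = 0.0952, adjusted p = 0.4 over 6 comparisons), and IL10/2-Trikine minus mono-IL10 was -0.0717 (exact permutation p = 0.206, adjusted p = 0.413). Mono-IL10 minus PBS was -0.0183 (exact permutation p = 0.754, adjusted p = 0.9). Without PBS mouse 2, which held 12 of the 22 PBS members, IL10/2-Trikine minus PBS was -0.0517. None passed the test, and with 5 mice against 5 the smallest p possible is 0.00794.

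The share depended on which cells were counted. Without the hashtag limit, where mice cannot be separated, cDC1 made up 0.557% of non-epithelial cells in the PBS library (exact 95% interval 0.458% to 0.672%), 0.295% in mono-IL10 (0.213% to 0.399%) and 0.139% in IL10/2-Trikine (0.0891% to 0.207%). With the hashtag limit the same libraries gave 0.160%, 0.144% and 0.0876%. The intervals cover counting error only and compare 3 libraries, not the treatments. The lower depth of the IL10/2-Trikine library moved with the lower share, and its part was not tested beyond thinning. With barcodes thinned to 3000 UMIs and shallower ones left out, the mean shares over mice were 0.106%, 0.0827% and 0.0369%. The matching unthinned means were 0.142%, 0.123% and 0.0518%. The depth limit kept 22 of 22 PBS members, 16 of 17 from mono-IL10 and 7 of 11 from IL10/2-Trikine.

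Within the dendritic cells, the direction of the cDC1 share turned with the mice that were counted. In mice with at least 10 dendritic cells the mean share was 18.7% ± 5.07 (SD, n = 4) in PBS, 22.3% ± 9.20 (SD, n = 3) with mono-IL10 and 27.4% ± 1.59 (SD, n = 2) with IL10/2-Trikine. That minimum left out mono-IL10 mouse 3 and IL10/2-Trikine mice 3 and 5, which had dendritic cells and no cDC1, as well as PBS mouse 1 and mono-IL10 mouse 4 with 1 cDC1 each. IL10/2-Trikine mouse 4 had no dendritic cell. With every mouse that had a dendritic cell, an alternative chosen after seeing the data, the PBS mean was 17.2% ± 5.56 (SD, n = 5), the mono-IL10 mean 16.3% ± 11.7 (SD, n = 5) and the IL10/2-Trikine mean 13.7% ± 15.9 (SD, n = 4). Either way, all 3 differences missed the exact permutation test's threshold. The p-values with the minimum were 0.133 for IL10/2-Trikine against PBS, 0.9 against mono-IL10 and 0.514 for mono-IL10 against PBS, and adjusted 0.4, 0.9 and 0.771. Without it the exact permutation p-values were 0.643, 0.905 and 0.921, each adjusted to 0.921. The first 2 comparisons with the minimum could not go below 0.0667 and 0.1.

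**Figure D2:**
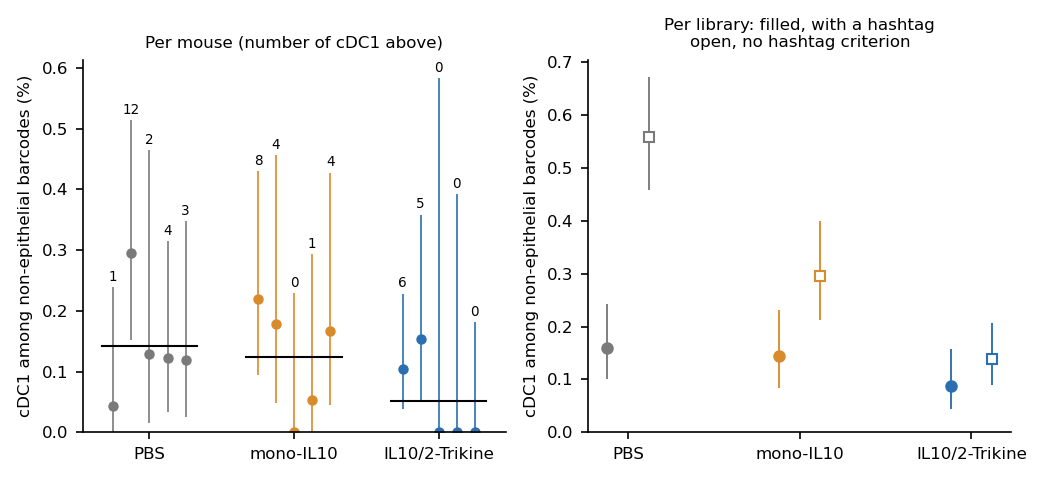
Share of cDC1 among non-epithelial cells (percent) by treatment, on the left with 1 point per mouse, its exact 95% interval, its number of cDC1 and the group mean as a line, and on the right per library with (filled) and without (open) the hashtag limit. On the left 3 IL10/2-Trikine mice and 1 mono-IL10 mouse sit at 0, and the open squares on the right fall from 0.557% to 0.139%.

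Of the receptor genes for the injected cytokines, Il10ra was detected in cDC1 of PBS and mono-IL10 mice and Il2rb in no member. Il10ra, the IL-10 receptor chain that binds the cytokine, had 33 UMIs in 21 of the 50 cells, and stood at 78.9 CPM in PBS, 65.0 with mono-IL10 and 0 with IL10/2-Trikine. With the cells that lacked a clear hashtag added, the levels were 83.9, 67.1 and 0 CPM. Over all barcodes of the 3 libraries Il10ra stood at 39.8, 34.8 and 23.2 CPM. The 24 IL10/2-Trikine cells together held 95123 UMIs, which allows up to 31.5 CPM, above the 23.2 over all barcodes of that library. IL10/2-Trikine macrophages held Il10ra at 97.7 CPM, compared to 122 in PBS macrophages. By mouse, Il10ra ranged from 29.1 to 162 CPM in the 5 PBS mice, stood at 36.0, 153, 1044 (from 1 cell) and 0 in the 4 mono-IL10 mice with cDC1, and was at 0 in both IL10/2-Trikine mice. Il10ra did not pass the filter on low counts in the fit between treatments, so its difference was not tested there. Il10rb, the partner chain, had 8 UMIs in 6 cells, or 15.98 CPM, below the 37.2, 34.8 and 30.6 CPM over all barcodes of the 3 libraries, a level that is read as background.

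Il2rb, the IL-2 receptor chain that the Trikine recruits, had 0 UMIs in the 50 members, which allows up to 5.99 CPM. It also had 0 in the 175 cells with and without a clear hashtag, which allows up to 1.81. The same gene stood at 92.6, 118 and 211 CPM in PBS, mono-IL10 and IL10/2-Trikine macrophages. Those macrophages, unlike the members, were not required to lack Cd3e and Ncr1, so the levels are not compared like with like. In other dendritic cells, which were required to lack both, Il2rb was low too. It stood at 26.7, 0 and 0 CPM in type 2 cells and 10.0, 0 and 23.4 in mature cells. Il2rg, the common gamma chain, also had 8 UMIs in 6 members, below its 31.5, 35.4 and 29.9 CPM over all barcodes. Il2ra, the alpha chain, had 5 UMIs in 1 cell. Stat3, the factor that IL-10 activates, was seen in 38 cells at 158 CPM. Socs3, a feedback inhibitor that STAT3 induces, stood at 66.5 CPM in PBS, 46.4 with mono-IL10 and 22.5 with IL10/2-Trikine, where that is 1 UMI. Cish, a STAT5 target, stood at 45.7, 41.8 and 0. At 44481 UMIs the last library cannot show differences of this size.

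**Figure D3:**
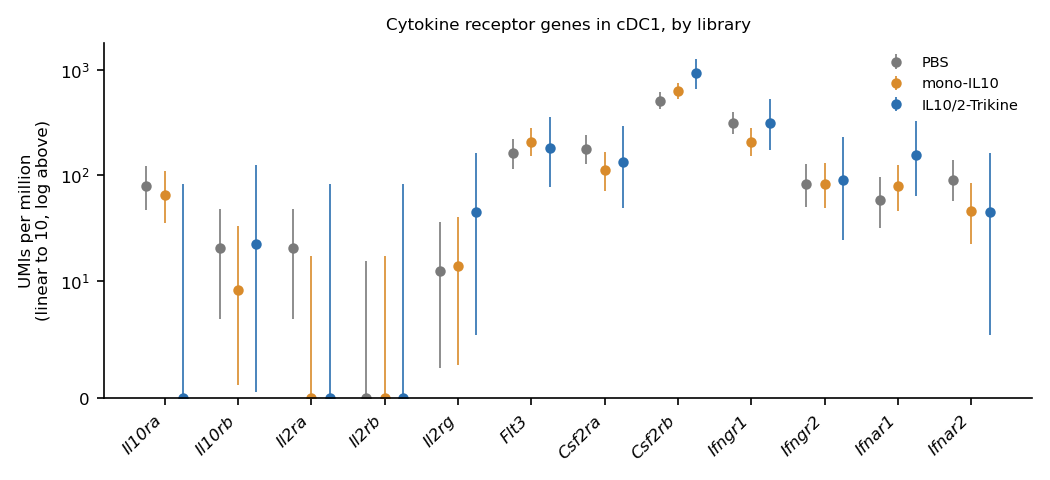
Levels of cytokine receptor genes in CPM (axis linear to 10 and logarithmic above) in cDC1 of each library, with exact 95% Poisson intervals for counting error. Il10ra is at 0 in IL10/2-Trikine and Il2rb is at 0 in every library.

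Ccr7, the maturation receptor, had UMIs in 5 of 50 members, 2 from PBS and 3 from mono-IL10, and 0 of 11 from IL10/2-Trikine. Over all members it stood at 240 CPM, compared to 901 in type 2 cells, 50.6 in macrophages and 3267 in the mature dendritic cells, which were chosen by Ccr7 and Fscn1. Thinned to 3000 UMIs per cell, with 5 shallower cells left out, the shares were 9.09% (exact interval 1.12% to 29.2%) of 22, 18.8% (4.05% to 45.6%) of 16 and 0% (0% to 40.96%) of 7. The intervals pool cells of different mice, with 12 of the 22 PBS cells from PBS mouse 2, and do not compare the treatments. They limit cells with a UMI, not cells that express the gene. The cells held 13 Ccr7 UMIs in PBS mouse 2, 20 in PBS mouse 5, 44 in mono-IL10 mouse 1, and 39 and 4 in mono-IL10 mouse 2. The 5 cells met the rule, but 17 of 19 cDC1 identity genes were lower in them than in the other members, 10 of these by more than 2-fold. Cadm1 stood at 37.0 CPM in them, from 1 cell, compared to 410 in the other 45 members. Naaa stood at 222 compared to 1334, Itgae at 92.6 compared to 591 and Irf8 at 130 compared to 580. The higher ones were Cd36, at 852 compared to 331 with its UMIs in 3 of the 5 cells, and Id2, at 1203 compared to 490. Btla differed little, at 370 compared to 432. The cell of PBS mouse 2 and that of PBS mouse 5 had 1 Xcr1 UMI each. These values do not settle whether all 5 are cDC1. Fscn1, an actin-bundling protein of mature dendritic cells, had 0 UMIs in all 50 members. It stood at 1518 CPM in mature dendritic cells, where a UMI of it was required. The 0 did not hold once cells lacking a clear hashtag were added. Fscn1 then had 30 UMIs over 175 cells, or 18.1 CPM. The PBS library gave 25 of these UMIs and the mono-IL10 library 5. One such PBS cell, with 27 Ccr7 UMIs, held 3 of Fscn1, and the other cells of that kind with Ccr7 held none. With the cells lacking a clear hashtag added, Fscn1 stood at 23.3 CPM in PBS and 10.2 with mono-IL10. That is below the 26.3 and 20.7 CPM over all barcodes of those libraries, a level that is read as background.

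Some chemokine and NF-kB genes were higher in those 5 cells and others were not. The Ccr7+ cells were singled out after their values were seen, so no test is given. Ccl22, a ligand of CCR4, stood at 1833 CPM in the 5 cells compared to 11.2 in the other 45. Ccl17, the other CCR4 ligand, stood at 4721 compared to 228, with 237 of the 255 UMIs of the 5 cells in 1 cell. Nfkb1 stood at 1185 compared to 193, and Relb at 241 compared to 33.6. Il12b, which encodes the p40 chain of interleukin-12, stood at 1814 compared to 38.1. It had UMIs in 2 of the 5 cells and in 6 of the other 45. The costimulatory gene Cd86 was at 741 compared to 439, and Cd83 at 981 compared to 741. In contrast, the inflammatory chemokine gene Ccl3 stood at 0 in the 5 cells compared to 71.6. The gene of the monocyte attractant Ccl2 stood at 18.5 compared to 26.9. Cxcl9 stood at 37.0 compared to 42.5.

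Most of the Il12b came from 1 cell. It belonged to mono-IL10 mouse 1 and held 96 of the 115 Il12b UMIs, together with 44 of Ccr7, 237 of Ccl17 and 60 of Ccl22. Il12b had UMIs in 8 members in all, 2 in PBS, 4 with mono-IL10 and 2 with IL10/2-Trikine. Il12a, which encodes the p35 chain, had 0 UMIs in all 175 cells. Among the 125 cells without a clear hashtag, 11 had Ccr7, of which 8 were from PBS, 3 from mono-IL10 and 0 from IL10/2-Trikine. A mono-IL10 cell of that kind held 75 Ccr7, 53 Il12b, 109 Ccl17 and 40 Ccl22 UMIs, and a PBS cell held 27 Ccr7, 19 Il12b, 6 Ccl17 and 26 Ccl22 UMIs. Over all members Il12b stood at 230 CPM, compared to 264 in mature dendritic cells, 12.4 in type 2 cells and 3.44 in macrophages.

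**Figure D4:**
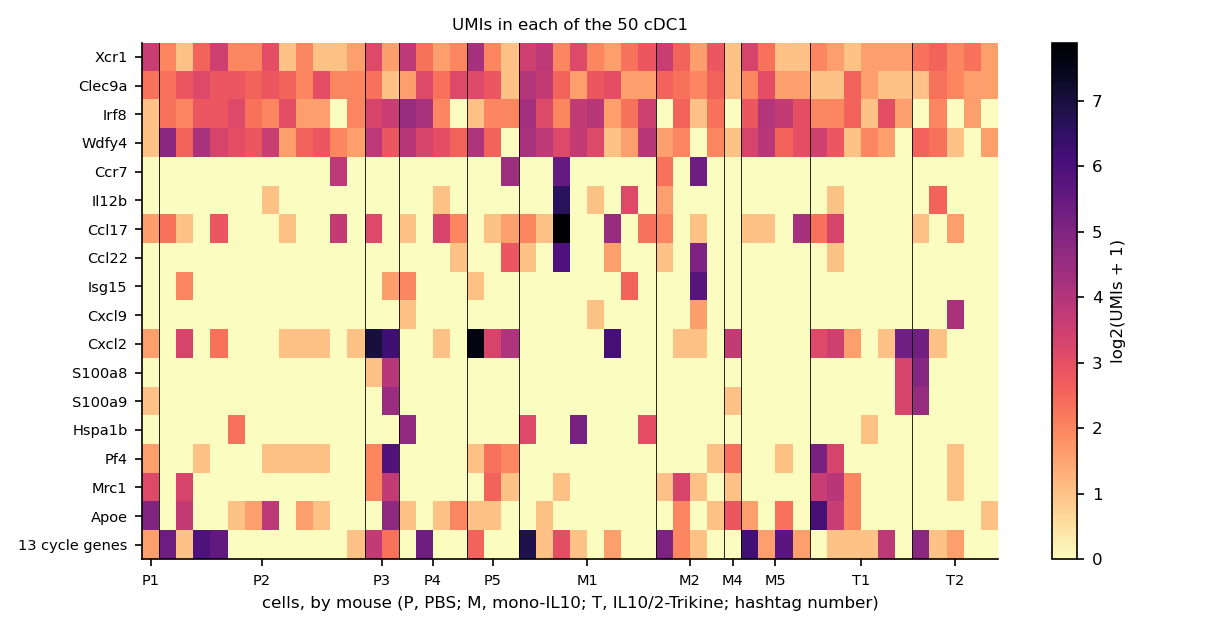
Heat map of log2(UMIs + 1) for selected genes (rows) in each of the 50 cDC1 (columns), ordered by mouse. The cells with Ccr7 are few, come from PBS and mono-IL10, and 1 mono-IL10 cell holds 96 of the 115 Il12b UMIs.

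Because Il12b, Ccl17 and Ccl22 were all high in that 1 mono-IL10 cell, and were called between treatments in the fit described below, the 250 bases before each gene's start are shown, from the RefSeq windows of GRCm38.p6, a different build from the GRCm39 of the counts. Capitals mark a match to TTCNNNGAA, the form of a STAT site. Windows of 300 bases were searched on both strands.
Il12b, chr11:44399813-44400062, plus strand: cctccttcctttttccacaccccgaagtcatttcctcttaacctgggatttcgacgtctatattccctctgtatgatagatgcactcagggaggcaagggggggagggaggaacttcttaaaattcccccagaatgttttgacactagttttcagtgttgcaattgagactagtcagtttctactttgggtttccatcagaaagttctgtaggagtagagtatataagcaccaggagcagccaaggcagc
Ccl17, chr8:94810203-94810452, plus strand: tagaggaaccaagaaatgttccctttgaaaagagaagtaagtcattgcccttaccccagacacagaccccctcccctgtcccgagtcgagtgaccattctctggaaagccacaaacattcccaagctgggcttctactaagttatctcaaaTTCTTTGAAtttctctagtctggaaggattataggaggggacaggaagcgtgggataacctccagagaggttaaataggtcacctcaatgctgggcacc
Ccl22, chr8:94745434-94745683, plus strand: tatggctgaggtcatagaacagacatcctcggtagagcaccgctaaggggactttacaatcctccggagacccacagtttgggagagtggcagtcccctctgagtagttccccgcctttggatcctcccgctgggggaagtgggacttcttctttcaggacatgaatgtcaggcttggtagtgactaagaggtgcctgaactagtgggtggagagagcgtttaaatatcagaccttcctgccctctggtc
The Ccl17 window held 1 match, at bases 152 to 160. TTCNNNGAA occurs in 8.3% of all 32851 windows. An interferon response element form (TTTC, any 2 bases, TTTC) occurs in 3.44%, and an NF-kB-like form added after the data were seen (GGG, any 2 bases, TTTCC) in 1.63%. Neither was in these 3 windows. Of 20 cDC1 identity genes 15 had a window, and TTCNNNGAA was in those of Batf3, Bcl6 and Irf8. The interferon response element form was in that of Ifi205 and the NF-kB-like form in that of Tlr3. The matches are descriptions of letters, not sites.

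Proliferation genes were high in a minority of the members. The summed UMIs of 13 cell cycle genes were 0 in 21 cells and at most 7 in a further 18, while the other 11 cells held 12 to 114. The 11 were 5 of 22 in PBS, 4 of 17 in mono-IL10 and 2 of 11 in IL10/2-Trikine, and came from 8 of the 11 mice with members. The division at 10 UMIs was chosen after the values were seen. These genes stood at 1085 CPM in cDC1, compared to 453 in type 2 cells, 68.5 in mature cells and 474 in macrophages. In cells thinned to 3000 UMIs, at least 2 cycle UMIs were found in 22.7% of PBS, 31.3% of mono-IL10 and 14.3% of IL10/2-Trikine cells. Unthinned, the shares were 36.4%, 52.9% and 27.3%. Too few mice had 5 cells or more for a test.

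Genes were compared between treatments on UMIs summed per mouse. No group had 3 mice with 5 cells or more, so the fit as planned rests on PBS mouse 2, mono-IL10 mouse 1 and IL10/2-Trikine mice 1 and 2. The lone PBS and mono-IL10 mice are assumed to vary like the IL10/2-Trikine pair. By edgeR's quasi-likelihood test at an adjusted p of 0.05, IL10/2-Trikine minus PBS gave 5 higher and 0 lower genes of 1849 (0.27%). IL10/2-Trikine minus mono-IL10 gave 7 higher (0.379%) and 5 lower (0.27%), 0.649% in all. Mono-IL10 minus PBS gave 4 higher (0.216%) and 2 lower (0.108%), 0.324% in all. The comparisons share mice. With every mouse of at least 3 cells, 8 mice and 971 genes, edgeR called 0 genes in each comparison, and 41, 51 and 27 genes had an unadjusted p below 0.05. With every mouse of at least 1 cell, 11 mice and 969 genes, it again called 0, with 23, 24 and 36 at an unadjusted p below 0.05. DESeq2 on the 4 mice called 1 gene, Cxcl2, in the first comparison and 0 in the others.

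Ccl17, Ccl22 and Il12b were among the genes called between mono-IL10 and both other groups, as was Hspa1b. In the fit, mono-IL10 and PBS each stand as 1 mouse, so their adjusted p-values borrow the spread of the IL10/2-Trikine pair and do not test a difference between the treatments. Ccl17 was at 2404 CPM in mono-IL10 mouse 1, 194 in PBS mouse 2, and 515 and 156 in IL10/2-Trikine mice 1 and 2. The fitted log2 difference was 3.70 for the mono-IL10 mouse minus the PBS mouse and -3.00 ± 0.53 for the IL10/2-Trikine pair minus the mono-IL10 mouse (SE, edgeR adjusted p = 8.49e-06). The other mono-IL10 mice stood at 87.4, 0 and 358 CPM, each far below mouse 1. Il12b had 105 UMIs in mono-IL10 mouse 1, 1 in PBS mouse 2, and 1 and 5 in the IL10/2-Trikine mice. The fitted log2 difference was 6.67 for the mono-IL10 mouse minus the PBS mouse and -2.97 ± 0.76 for the IL10/2-Trikine pair minus the mono-IL10 mouse (SE, edgeR adjusted p = 0.0149). The other mono-IL10 mice had 2, 0 and 0 Il12b UMIs. Ccl22 had 63 UMIs in mono-IL10 mouse 1 and 33 in mono-IL10 mouse 2, compared to at most 6 in any other mouse. A single cell held 66.4% of all Ccl17 UMIs, 83.5% of Il12b and 57.7% of Ccl22. Without the Ccr7+ cells, Ccl17, Ccl22 and Il12b were called in no comparison.

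The genes called higher in IL10/2-Trikine were S100a8, S100a9, Spp1, Cxcl2 and Cxcl9 against PBS, and S100a8, S100a9, Spp1, Mrc1, Pf4, Mt1 and ENSMUSG00000120878 against mono-IL10. S100a8 and S100a9, the calprotectin chains of neutrophils, were called higher than in both other groups. S100a8 had 9 and 28 UMIs in IL10/2-Trikine mice 1 and 2, 0 in PBS mouse 2 and mono-IL10 mouse 1, and 15 in PBS mouse 3, which was outside the fit. Those 37 IL10/2-Trikine UMIs lay in 2 cells. S100a8 and S100a9 are themselves among the 5 neutrophil markers and gave 37 and 31 of the 74 marker UMIs in IL10/2-Trikine. The neutrophil marker sum thus could not move apart from them, and its part was not tested. Mrc1, the mannose receptor of macrophages, had 28 and 1 UMIs in the IL10/2-Trikine mice and 1 in mono-IL10 mouse 1. Those IL10/2-Trikine mice stood at 1110 and 51.9 CPM, and mono-IL10 mice 2, 4 and 5, outside the fit, at 240, 348 (1 UMI) and 0. Pf4, a platelet and macrophage chemokine, had 43 and 1 UMIs in the IL10/2-Trikine mice and 0 in mono-IL10 mouse 1, and PBS mouse 3 held 61. Mono-IL10 mice 2, 4 and 5 held 1, 4 and 1 Pf4 UMIs, which is 1392 CPM in mouse 4. In all, 2 cells of IL10/2-Trikine mouse 1 held 25 of the 29 Mrc1, 43 of the 44 Pf4 and 79 of the 83 Apoe UMIs of that library. Mrc1 and Apoe are themselves among the 8 macrophage markers and gave 29 and 83 of the 171 marker UMIs in IL10/2-Trikine. The macrophage marker sum is thus not separate from Mrc1. It also moved with Pf4, which is not a marker of that list, and its part was not tested. Spp1 and Mt1, counted among the calls, were below their level over all barcodes of the library.

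Cxcl2 varied widely between mice of the same treatment, and Cxcl9 came mostly from 1 cell. Cxcl2, a neutrophil attractant, was at 2339 and 1973 CPM in the IL10/2-Trikine mice and 137 in PBS mouse 2, a difference of 3.82 ± 0.61 (SE, log2, edgeR adjusted p = 3.17e-07). The 2 IL10/2-Trikine cells with S100a8, 1 in each mouse, held 75 of the 97 Cxcl2 UMIs of that library (77.3%), so the neutrophil marker sum moved with Cxcl2 as well, and its part was not tested. PBS mice 3 and 5, outside the fit, stood at 7305 and 6459 CPM, above both IL10/2-Trikine mice. With mice of at least 3 cells the difference was -0.027. Cxcl9, a ligand of CXCR3 on T cells, had 21 UMIs in all members, of which 17 lay in 1 cell of IL10/2-Trikine mouse 2. Hspa1b, a heat shock gene, had 49 UMIs in 3 mono-IL10 cells, 28 in 2 PBS cells and 1 in IL10/2-Trikine. Cmss1 and Gm19951 were called lower in mono-IL10 than in PBS, with 38.0% and 49.1% of their UMIs in 1 cell.

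**Figure D5:**
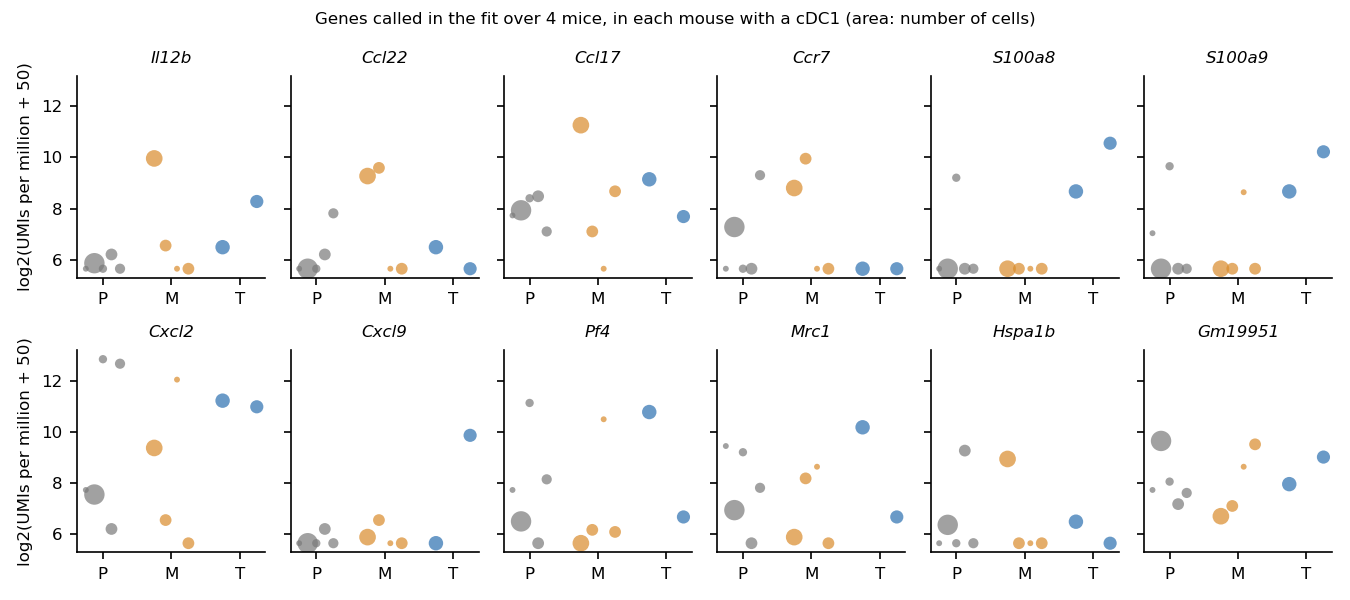
Levels of called genes per mouse as log2(CPM + 50), with P for PBS, M for mono-IL10 and T for IL10/2-Trikine. Point area grows with the number of cDC1 in the mouse, and Cxcl2 in PBS mice 3 and 5 lies above the IL10/2-Trikine mice.

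Read by gene group, the fit on 4 mice gave few calls, and the fits with at least 3 cells or at least 1 cell per mouse gave none in any list. Mono-IL10 minus PBS in that fit sets 1 mouse against 1, and IL10/2-Trikine minus either group sets 2 against 1. Of the maturation and costimulation list 13 of 29 genes were tested. Ccl17 and Ccl22 were called higher in mono-IL10 than in PBS, 2 genes beside 0.216% of all genes tested. These and Ccr7 were called lower in IL10/2-Trikine than in mono-IL10, 3 genes beside 0.27% of all. Most of their UMIs in mono-IL10 mouse 1 lay in 1 cell, as given above. Of the cytokines and chemokines 6 of 20 were tested, with Cxcl9 called higher in IL10/2-Trikine than in PBS, beside 0.27% of all, and Il12b as above. The interferon-gamma list had 3 of 28 tested and the same Cxcl9 call, with 17 of the 21 UMIs in 1 cell. The antigen uptake list had 10 of 23 tested and Mrc1 as its call, higher in IL10/2-Trikine than in mono-IL10 beside 0.379% of all. The dissociation and stress list had 17 of 17 tested and Hspa1b as its call, higher in mono-IL10 than in PBS beside 0.216% of all and lower in IL10/2-Trikine than in mono-IL10 beside 0.27%.

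The other lists had 0 calls by edgeR, and 0 by DESeq2, in each comparison of that fit. They were cDC1 identity with 17 of 19 genes tested, MHC class I with 15 of 22, MHC class II with 13 of 15, the IL-10 receptor and STAT3 list with 9 of 19 and the IL-2 receptor and STAT5 list with 4 of 19. The remaining ones were type I interferon with 2 of 33, growth factor and homing receptors with 11 of 24, cell cycle with 10 of 24, glycolysis and hypoxia with 11 of 21, and inhibitory and death receptors with 9 of 21. With 0.27% to 0.649% of all 1849 genes called, 0 of so few members lies near the background and is no result about these lists. The identity list had a median log2 difference of 0.0010 for IL10/2-Trikine minus PBS, -0.37 minus mono-IL10 and 0.40 for mono-IL10 minus PBS, beside 0.067, 0.078 and 0.047 over all genes tested.

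Cd36, a scavenger receptor high in cDC1, was the identity gene with an unadjusted p below 0.05 in the fit on 4 mice. With at least 3 cells per mouse, Cd36 against PBS and Cadm1 against mono-IL10 had one, and with at least 1 cell per mouse no identity gene did. It stood at 39.7 and 156 CPM in the IL10/2-Trikine mice, between 36.0 and 669 in the 5 PBS mice and between 53.8 and 1044 in the 4 mono-IL10 mice. The groups overlapped, and the difference from PBS was log2 -2.54 ± 0.85 (SE, edgeR adjusted p = 0.477). Among the type I interferon genes, Isg15 had 68 UMIs, of which 54 lay in 1 Ccr7+ cell of mono-IL10 mouse 2.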

How the data were processed

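Single-cell 5′ RNA libraries of CD45+ tumor cells from 3 treatments were analysed, each a pool of 5 hashtagged mice. Their deposited values are raw UMI counts, which the authors made with Cell Ranger (v9) on GRCm39. The submitters' processing notes name Seurat 5.1.0 and DESeq2 1.46.0. Barcodes were filtered and assigned to mice as given in the report, with hashtags numbered by antibody. The deposited annotation of T and NK cells was used only to exclude cells. It also holds 1 group with no mapped matrix, which was not used. Doublets were limited by the hashtag, C1q, keratin and lineage criteria, and no doublet caller was run.

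UMI counts were summed per mouse and tested with edgeR 4.0.16 in R 4.3.3 (quasi-likelihood, TMM, filterByExpr, Benjamini-Hochberg over all genes tested). The planned minimum of 10 cells per mouse fell back to 5. DESeq2 1.42.0 was an alternative. Shares were compared by exact permutation over mice, enumerated in Python 3.11.15. Exact intervals were computed with scipy 1.17.1. Hashtags mark separate mice. The edgeR fits with at least 3 cells and at least 1 cell per mouse were tested on simulated data, and the planned fit was not. The first recovered 14% of 2-fold and 52% of 4-fold changes, with 2 false calls among 971 genes. The second recovered 16% and 62%, with 6 false calls among 969 genes. Both simulations used the same spread between mice, close to the first fit's biological coefficient of variation of 0.363. The second fit had 0.447, so its simulation was less noisy than its data. Its recovery therefore does not carry over to those data.

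Named genes were, per comparison and direction, the 12 called genes with the smallest p, filled up to 6 with genes said not to be called where fewer were called. Rule genes, sex-linked genes, receptor variable genes and genes below the library's own level were left out, and members of the fixed lists could be named whatever their result. The members, the 15 gene lists and the tests were chosen with earlier results of these data known. Comparison cells were set by marker rules. Type 2 dendritic cells had Cd209a with Flt3 or Zbtb46, mature dendritic cells had Ccr7 and Fscn1, and macrophages had at least 10 C1q UMIs. The dendritic cells were also required to lack Cd3e and Ncr1, and the macrophages were not.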

Additional observations from a re-analysis of the deposited data

How the results depend on the processing

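No difference in the shares of cDC1 had an adjusted p below 0.05 under any setting tried. IL10/2-Trikine minus PBS in the share of non-epithelial cells turned from -0.0899 to 0.000761 percentage points with a hashtag share of at least 0.9, which keeps 4 cDC1, and mono-IL10 minus PBS turned to 0.0175. With each mouse left out, IL10/2-Trikine minus PBS ranged from -0.115 to -0.0517, the latter without PBS mouse 2. Without the Xcr1 criterion it was -0.186 (exact permutation test, p = 0.0476, adjusted p = 0.286). Mono-IL10 minus PBS ranged from -0.0430 to 0.0200, positive without PBS mouse 2 and without mono-IL10 mouse 3. IL10/2-Trikine minus mono-IL10 in the share of dendritic cells ranged from -0.175 to 8.23 points and was negative without mono-IL10 mouse 2. With every mouse that had a dendritic cell, an alternative chosen after seeing the data, the differences in the share of dendritic cells were -3.48 for IL10/2-Trikine minus PBS, -2.54 minus mono-IL10 and -0.942 for mono-IL10 minus PBS. Requiring Fscn1 with Ccr7 gave 0% in PBS and 0% in mono-IL10. The cycling share in IL10/2-Trikine ranged from 0% to 33.3% with 1 mouse left out. With the C1q limit raised to 10, also chosen after seeing the data, IL10/2-Trikine minus PBS was -0.162 (exact permutation test, p = 0.0159, adjusted p = 0.0952).

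Counts of called genes depended on the mice and the test. For IL10/2-Trikine minus PBS, IL10/2-Trikine minus mono-IL10 and mono-IL10 minus PBS, 5, 12 and 6 genes became 1, 0 and 0 by DESeq2's Wald test and 24, 27 and 44 with mice thinned to the lowest total, where 460 genes were tested. Without the Clec9a criterion the middle count was 6. After seeing the data, fits with at least 3 cells or at least 1 cell per mouse were added, and both gave 0, 0 and 0. Without Ccr7+ cells the middle count was 7, and with at least 3 cells per mouse as well the counts were 0, 2 and 0. In the planned fit only the lone PBS or mono-IL10 mouse could be left out, which removes its group. The comparison that remained did not involve the mouse left out, so the dependence of its calls on a compared mouse was not tested. Mono-IL10 minus PBS could not be refitted there. The fit with at least 3 cells per mouse had 0 calls with all mice, and with 1 mouse left out it gave 0 for mono-IL10 minus PBS each time. In the latter fit S100a8 was called against PBS without mono-IL10 mouse 1, 2 or 5 or IL10/2-Trikine mouse 1, and against mono-IL10 without IL10/2-Trikine mouse 1. Without IL10/2-Trikine mouse 2, Apoe, Ctsb and Pf4 were called against mono-IL10 (3 genes).

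Single log2 differences also turned. Cxcl2, IL10/2-Trikine minus PBS, was -0.027 with at least 3 cells and -0.38 with at least 1 cell per mouse. Ccl17, IL10/2-Trikine minus mono-IL10, was 0.077 without Ccr7+ cells at 3 cells or more, and Il12b was 0.43 without Ccr7+ cells. Hspa1b, mono-IL10 minus PBS, was -0.16 with at least 3 cells per mouse. Beyond the construction of each setting, the cause was not tested.

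No paired analysis was possible because the labels carry no replicate numbers and a hashtag number does not tie mice across treatments. The following were not run for lack of mice or genes: at least 10 counts in 5 mice, at least 20 cells per mouse, members without any C1q or keratin UMI, the 0.9 hashtag share for gene tests, leaving out an IL10/2-Trikine mouse from the planned fit, and the comparison of treatment effects with type 2 or mature dendritic cells.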
